A study of Mus musculus with 3 samples.

Results

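Phase II conjugation enzymes attach a polar group to drugs, hormones, bilirubin and bile acids, and their genes were examined here as accessible chromatin in mouse hepatocytes. The set was taken by symbol: every protein-coding gene of the RefSeq table of GRCm38.p6 (the mm10 assembly) whose symbol starts with Ugt1a, Ugt2a, Ugt2b, Ugt3a, Gsta, Gstm, Gstp, Gstt, Sult1, Sult2, Sult3 or Sult5. It held 57 of the 21631 protein-coding genes that the table places on the autosomes and chromosome X. They lay in 14 clusters, in which neighbouring members are at most 250 kb apart, and 4 of the clusters held a single gene. The 9 Ugt1a genes are alternative first exons joined to shared downstream exons, so they are also given as 1 locus.

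ATAC-seq, which marks accessible chromatin by the insertion of sequencing adapters with Tn5 transposase, was run on hepatocytes of wild-type mice that had received AAV8-TBG-Cre, named EV in the labels, by retro-orbital injection 4 days before harvest. In this virus the hepatocyte-active TBG promoter drives Cre recombinase, and all 3 libraries carry it, so accessibility without virus was not measured. Age, sex and strain are not given in the sources used here, nor whether the 3 libraries came from separate animals, so their spread may be partly technical. The series' libraries from the Sox4 virus are not used here, and 1 group allows no treatment comparison. The peak lists were called from 96066404 to 117450440 tags and held 108997 to 119230 peaks per library. Of 8 hepatocyte marker genes, 8 had a peak at a gene end in all 3 libraries, against 3 of 6 for cholangiocytes, 2 of 6 each for endothelium and stellate cells and 1 of 6 each for Kupffer cells and lymphocytes, and 64.4% of all protein-coding genes. The Sox4 gene, which the other virus of the series carries, had a pileup of 128 in EV replicate 1, 2544 in the library labelled EV replicate 2 and 134 in EV replicate 3. The library labelled EV replicate 2 thus stands apart at Sox4, and counts are given below with and without it.

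Conjugation runs in 3 chemistries. UDP-glucuronosyltransferases (Ugt) add a sugar acid from UDP-glucuronate in the endoplasmic reticulum, glutathione S-transferases (Gst) join glutathione to electrophiles, and cytosolic sulfotransferases (Sult) transfer sulfate from the activated donor PAPS. The liver carries out much of the body's conjugation, and xenobiotic sensors such as the Ah receptor, Nrf2 and the nuclear receptors Car and Pxr are known to regulate many of these genes, together with liver factors such as Hnf4a.

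Promoter sequences from RefSeq (GRCm38.p6, 250 bases before to 50 bases after the start, 5′ to 3′) were matched by symbol for 50 of the 57 genes. Those of Sult2a2, Sult2a7, Sult2a1, Ugt1a6b, Ugt3a2, Gsta4 and Gstt2 were not matched. The first 3 shown are promoters with a peak in every library that hold matches for liver or stress factors: Ugt1a1 (chr1:88211709-88212008, plus strand), whose start region was the tallest of the set, Ugt1a9 (chr1:88070529-88070828, plus strand) and Gsta3 (chr1:21240335-21240634, plus strand). Capitals mark matches, on either strand, to 7 short motifs: TGACNNNGC (Nrf2), GCGTG (Ah receptor), GTTAAT (Hnf1), CAAAGTCCA (Hnf4a), AGGTCA (nuclear receptors), TTGCNNAA (C/EBP) and TGTTTAC (Foxa).
Ugt1a1: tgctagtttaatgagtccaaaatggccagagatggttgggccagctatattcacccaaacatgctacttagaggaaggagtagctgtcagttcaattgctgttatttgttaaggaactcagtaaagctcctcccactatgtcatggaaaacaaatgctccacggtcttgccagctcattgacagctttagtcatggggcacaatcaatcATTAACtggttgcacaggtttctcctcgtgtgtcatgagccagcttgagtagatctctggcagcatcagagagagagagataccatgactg
Ugt1a9: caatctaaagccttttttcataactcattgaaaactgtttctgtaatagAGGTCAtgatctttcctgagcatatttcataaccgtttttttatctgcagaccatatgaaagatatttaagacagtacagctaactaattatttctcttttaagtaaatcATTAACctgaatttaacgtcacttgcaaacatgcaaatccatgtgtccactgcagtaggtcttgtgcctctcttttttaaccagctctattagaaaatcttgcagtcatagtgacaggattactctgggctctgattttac
Gsta3: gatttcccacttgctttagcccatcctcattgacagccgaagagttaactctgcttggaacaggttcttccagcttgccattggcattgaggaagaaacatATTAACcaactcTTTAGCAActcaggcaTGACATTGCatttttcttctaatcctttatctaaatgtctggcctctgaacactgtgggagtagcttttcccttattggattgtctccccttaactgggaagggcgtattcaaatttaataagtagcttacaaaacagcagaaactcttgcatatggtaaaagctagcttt
In Ugt1a1 the Hnf1 motif ran from -41 to -36 bp of the start, and in Ugt1a9 from -91 to -86 bp. In Gsta3 matches for Hnf1 (-149 to -144 bp), C/EBP (-137 to -130 bp) and Nrf2 (-121 to -113 bp) stood side by side. A match is a description of the letters, not of binding.

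Neighbouring copies are shown next because their promoters are alike while their peaks differ. Gstp1 (chr19:4037863-4038162, minus strand) and Gstp2 (chr19:4042172-4042471, minus strand) are identical at 80.3% of their bases, and of the pair only Gstp1 had a start peak in any library.
Gstp1: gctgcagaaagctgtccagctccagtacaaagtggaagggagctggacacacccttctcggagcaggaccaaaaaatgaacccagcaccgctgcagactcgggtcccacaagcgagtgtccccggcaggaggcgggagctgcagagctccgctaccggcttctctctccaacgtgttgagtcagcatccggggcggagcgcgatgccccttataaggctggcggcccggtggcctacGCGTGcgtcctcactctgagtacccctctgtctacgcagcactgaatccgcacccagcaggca
Gstp2: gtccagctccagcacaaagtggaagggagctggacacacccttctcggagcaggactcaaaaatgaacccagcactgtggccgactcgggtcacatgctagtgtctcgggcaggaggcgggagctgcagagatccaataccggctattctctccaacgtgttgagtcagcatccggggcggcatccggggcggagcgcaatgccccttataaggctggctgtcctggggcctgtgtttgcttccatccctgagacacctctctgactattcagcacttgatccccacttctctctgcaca
Ugt2b5 (chr5:87140291-87140590, minus strand), Ugt2b37 (chr5:87254739-87255038, minus strand) and Ugt2b38 (chr5:87424154-87424453, minus strand) are 82.0% to 90.3% identical pair by pair.
Ugt2b5: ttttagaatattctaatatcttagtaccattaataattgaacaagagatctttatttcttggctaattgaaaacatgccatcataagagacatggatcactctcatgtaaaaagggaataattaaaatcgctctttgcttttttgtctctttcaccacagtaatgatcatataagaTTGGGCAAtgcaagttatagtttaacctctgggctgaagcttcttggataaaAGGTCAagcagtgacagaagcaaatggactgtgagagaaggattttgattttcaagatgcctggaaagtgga
Ugt2b37: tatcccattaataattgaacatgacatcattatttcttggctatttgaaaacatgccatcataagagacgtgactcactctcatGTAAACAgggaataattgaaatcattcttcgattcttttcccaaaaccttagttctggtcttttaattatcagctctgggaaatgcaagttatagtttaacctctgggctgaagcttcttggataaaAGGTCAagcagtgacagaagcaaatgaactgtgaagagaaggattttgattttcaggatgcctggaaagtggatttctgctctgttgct
Ugt2b38: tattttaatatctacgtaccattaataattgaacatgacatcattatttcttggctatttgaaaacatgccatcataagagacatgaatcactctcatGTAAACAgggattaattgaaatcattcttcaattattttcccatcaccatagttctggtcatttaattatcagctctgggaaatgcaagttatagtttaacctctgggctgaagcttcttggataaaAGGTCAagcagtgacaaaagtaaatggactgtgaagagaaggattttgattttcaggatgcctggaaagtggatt
All 3 hold AGGTCA just before the start, at -22 to -17 bp in Ugt2b5, -39 to -34 bp in Ugt2b37 and -25 to -20 bp in Ugt2b38. The C/EBP match was in Ugt2b5 alone of the 3 and the Foxa match in Ugt2b37 and Ugt2b38. The last promoter, that of the inner start of Sult2a8 (chr7:14438502-14438801, minus strand), carries AGGTCA at -164 to -159 bp and again at -90 to -85 bp.
Sult2a8: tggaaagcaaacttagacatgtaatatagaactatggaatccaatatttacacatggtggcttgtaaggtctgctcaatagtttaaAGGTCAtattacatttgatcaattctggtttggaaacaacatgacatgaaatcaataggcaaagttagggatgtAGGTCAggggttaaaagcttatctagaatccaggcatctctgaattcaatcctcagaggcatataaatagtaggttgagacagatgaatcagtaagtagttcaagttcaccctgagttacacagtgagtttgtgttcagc

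Most of the phase II genes lay in accessible chromatin. A peak within 1000 bp of either end of the gene was called in all 3 libraries for 44 of the 57 genes (77.2%), while this held for 64.4% of all protein-coding genes. With only the 50000 peaks of highest −log10 q in each library the difference was gone, with 31 of 57 (54.4%) beside 54.4% of all genes. By library the number was 47, 44 and 46 for replicates 1, 2 and 3 (mean 45.7 ± 1.53, SD, n = 3), and in replicates 1 and 3 taken without the library labelled EV replicate 2, 46 of 57 genes against 65.0% of all genes were called. A peak inside the gene was called in all 3 libraries for 47 of 57 (82.5%), beside 73.2% of all genes. A shared region, which is a merged region holding a peak of every library, lay within 20 kb outside the gene and its ends for 50 of 57 (87.7%), beside 74.4% of all genes. Leaving out the library labelled EV replicate 2, these last 2 counts were 48 (84.2%, beside 73.7%) and 51 (89.5%, beside 76.2%). With Ugt1a counted as 1 locus the counts over all 3 libraries for gene ends, genes and flanks became 36, 39 and 42 of 49. With 50000 peaks per library the share for genes came close to that of all genes (64.9%, beside 64%). The share for flanks stayed further above (71.9%, beside 60%). No test was run on these shares, since neighbouring genes are not independent and the libraries form 1 group.

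The 3 genes with a gene-end peak in some libraries were Sult3a1, in replicate 1, and Sult2a5 and Sult2a8, in replicates 1 and 3. The 10 genes with none in any library were Gstt4, Gstp2, Ugt2b38, Ugt2a1, Ugt2a2, Sult1e1, Sult1c1, Sult2a1, Sult2a2 and Sult2a6. Of these, 3 (Sult1e1, Sult2a1 and Sult2a6) had a peak inside the gene in every library, and only Sult1c1 had no peak within 20 kb in any. A missing peak means that the region did not pass the peak caller's threshold in that library, not that chromatin there was closed.

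**Figure D1:**
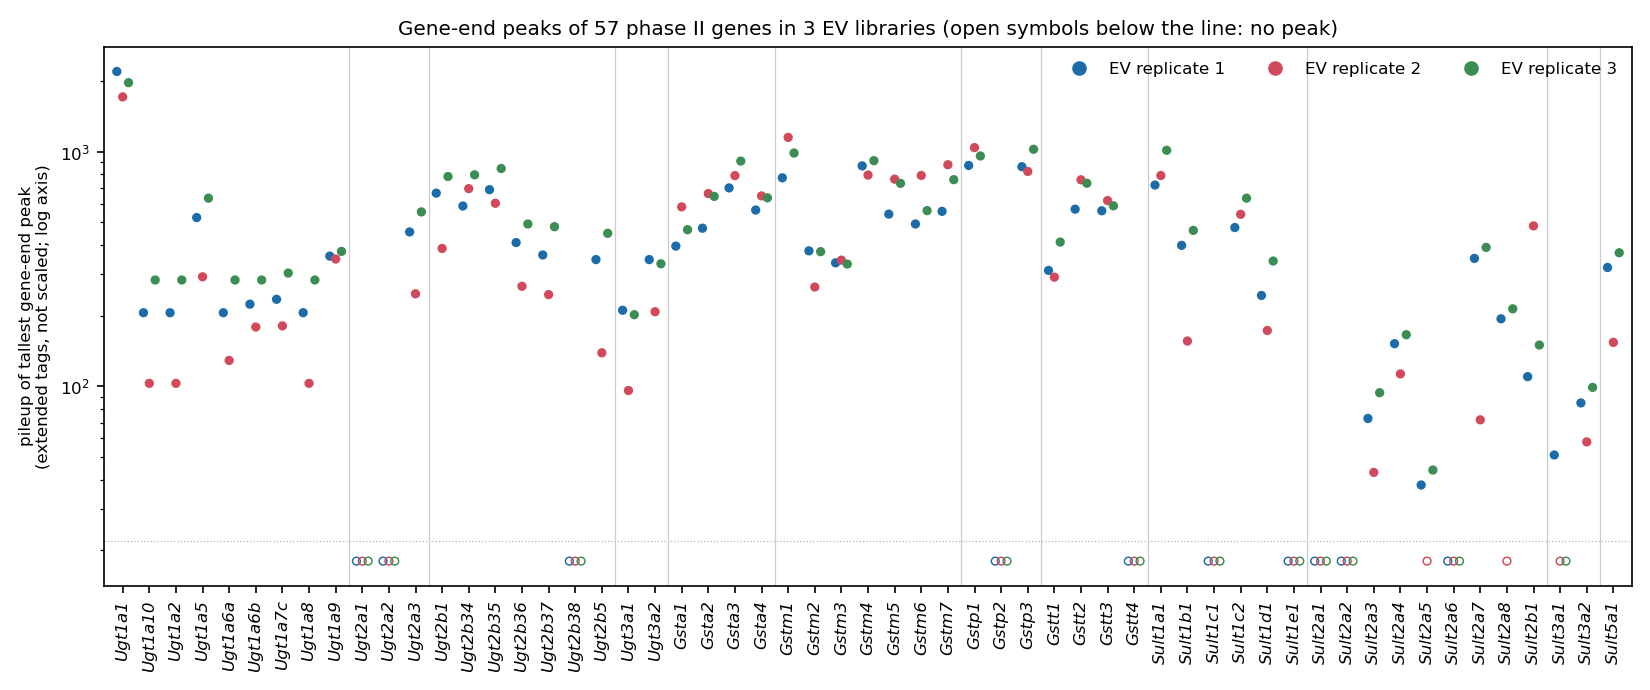
Pileup of the tallest peak at either gene end, which can be another peak in another library (extended tags at the summit, not scaled for depth, log axis) for the 57 genes by family, 1 point per library; open symbols under the dotted line are libraries with no gene-end peak. Ugt1a1 stands highest, the Gst genes with a call sit between 265 and 1151, and the 10 genes without any call are in Ugt2a, Ugt2b, Gstp, Gstt, Sult1 and Sult2.

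Height was ranked within each library's own list, because the pileup, the number of extended tags over a summit, is the authors' value and was not scaled for depth. The tallest gene-end peak of a phase II gene had a median percentile of 81.1, 78.1 and 81.4 in replicates 1, 2 and 3 (mean 80.2 ± 1.84, SD, n = 3). Over all protein-coding genes with such a peak the median was 89.7, 91.8 and 89.7, above that of the phase II genes in each library. By fold enrichment over the regional background, the medians were 61.0, 66.6 and 62.1 for phase II genes and 73.2, 79.2 and 74.7 for all genes.

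The Ugt1a locus on chromosome 1 makes the glucuronosyltransferases of bilirubin and phenols. All 9 genes were called at a gene end in every library, but they share their far end (pileup 206, 103 and 284 in replicates 1, 2 and 3), so their starts tell them apart. Start peaks were found in all libraries for 6 of the 8 genes with a mapped start. Ugt1a1 (chr1:88211959-88220002, plus strand), the bilirubin-conjugating form, had the tallest start, with summit pileups of 1539, 1712 and 1969 at -38, -32 and -34 bp. The Hnf1 motif printed above covers the first of these positions and lies just upstream of the others. A further summit inside the gene, 1868, 1888 and 1866 bp after the start, reached 2197, 1502 and 2633. It was the taller of the pair in replicates 1 and 3, and in replicate 1 the peak caller joined both into 1 peak. The joined region, chr1:88211660-88214502, ranked first of all shared regions in the phase II loci, at percentile 99.99 in each library.

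The other Ugt1a starts were lower and differed widely. Ugt1a5 had pileups of 524, 293 and 634 at -62, -58 and -74 bp. Ugt1a9, a phenol-conjugating form, had 359, 349 and 376 at -39, -33 and -37 bp, the most even values of the locus. Its neighbour Ugt1a10, whose promoter is 75.7% identical, had 33, 28 and 55, at percentiles 5.54, 0.931 and 17.0 of the peaks of each library. Ugt1a7c had 235, 181 and 304, with summits at -651 to -653 bp. Ugt1a6a had 93, 129 and 144, and its tallest summit lay at -919 bp in replicate 1 but at -99 and -107 bp in the others. Ugt1a2 had a start peak in the library labelled EV replicate 2 alone (pileup 51), and Ugt1a8 had none, so their gene-end calls rest on the shared far end. Ugt1a6b, whose start was not mapped, had 224, 179 and 275 at its lower end. The locus held 33 shared regions, 16.1 per 100 kb, and 29 of them overlapped Ugt1a10, its longest gene.

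**Figure D2:**
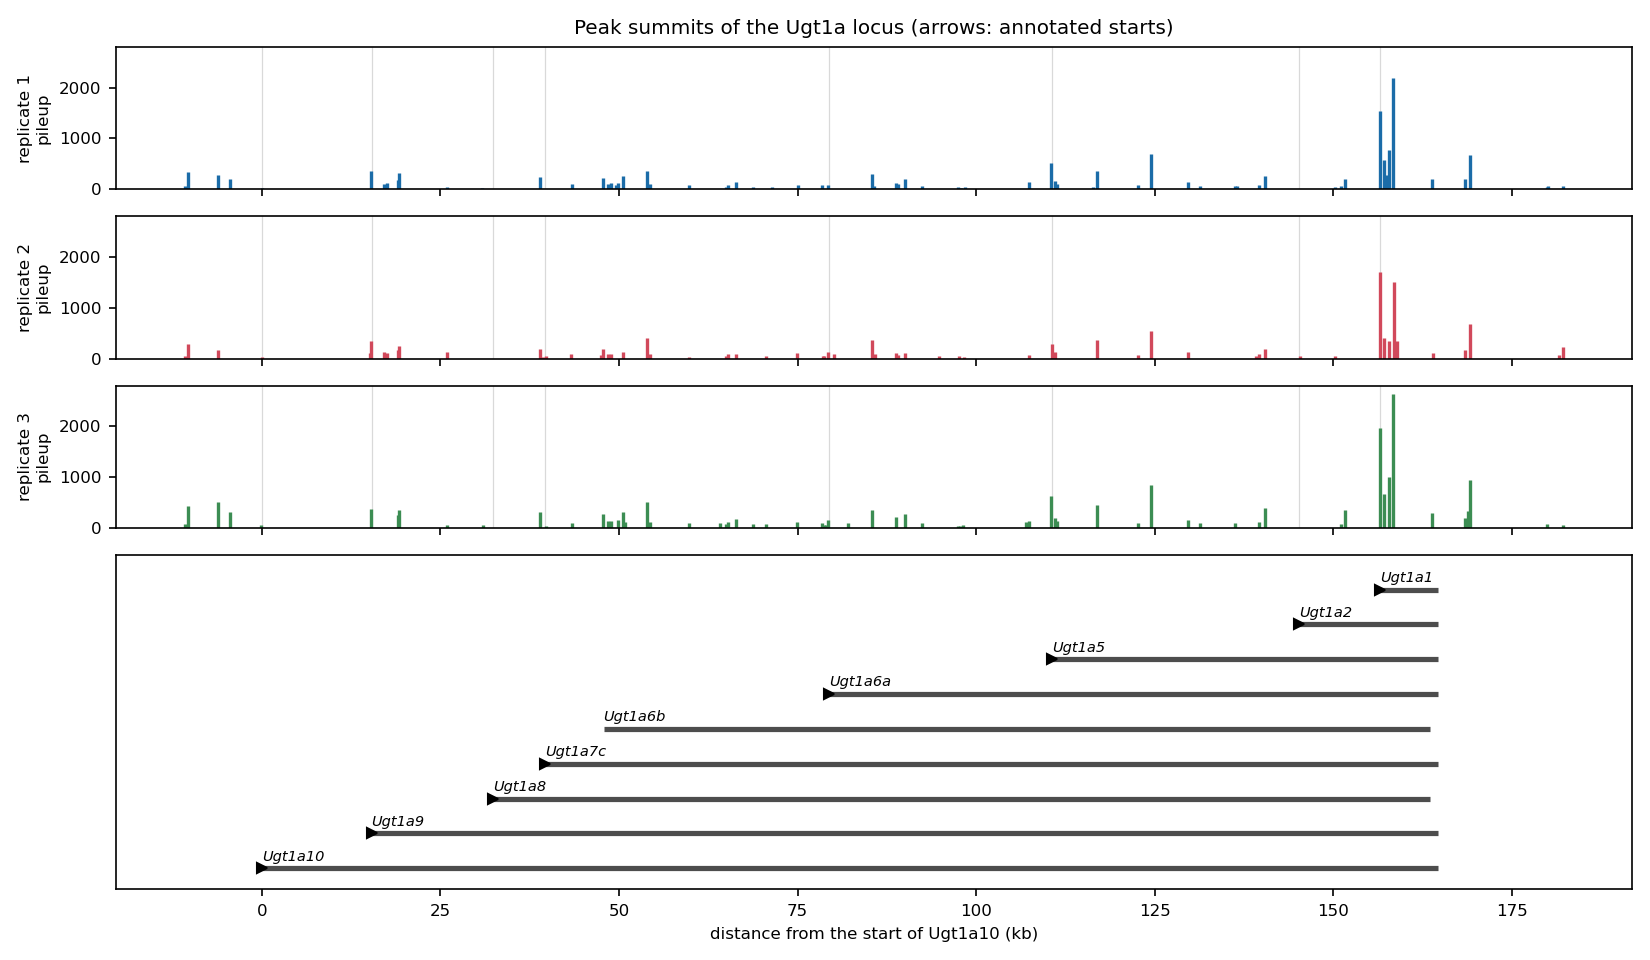
Summit pileup (extended tags, not scaled for depth) along the Ugt1a locus in the 3 EV libraries, by distance in kb from the start of Ugt1a10; grey lines and arrows mark annotated starts and bars the genes. The pair of tall summits at Ugt1a1 reaches 1502 to 2633 and exceeds every other summit of the locus.

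The Ugt2 genes, which conjugate steroids, bile acids and opioids, share 1 cluster of 13 genes on chromosome 5 with Sult1b1, Sult1d1 and Sult1e1. Start peaks were called in every library for 9 of the 13. The highest were Ugt2b35 (chr5:87000860-87013274; 689, 603 and 848) and Ugt2b34 (chr5:86889770-86906937; 587, 696 and 797), and Ugt2b1 followed with 666, 387 and 784. Their summits kept to within 9 bp between libraries. Ugt2b36 had 410, 267 and 492 at its start and the most shared regions within a gene body of the cluster, 6. Ugt2a3, the Ugt2a gene known in human to act on bile acids, had 455, 248 and 554. In Ugt2b36, Ugt2a3, Ugt2b1 and Ugt2b35, the library labelled EV replicate 2 was the lowest, and in Ugt2b34 replicate 1 was.

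The 3 copies with like promoters fell into different states. Ugt2b5 had a start peak of 347, 139 and 449 with summits at -47, -52 and -57 bp. Ugt2b37 had no summit over its start, and its call came from a peak of 363, 246 and 479 whose summit lay at -1249 to -1256 bp and whose edge reached the window. Ugt2b38 had no peak at either end or in the gene, and its nearest shared region was 11902 bp from the start. How reads that fit several copies were treated is not given in the sources used here, so these values, and those of the other near-identical copies, are uncertain. Ugt2a1 and Ugt2a2, best known from the olfactory epithelium, share most of their span and had no peak in it in any library.

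**Figure D3:**
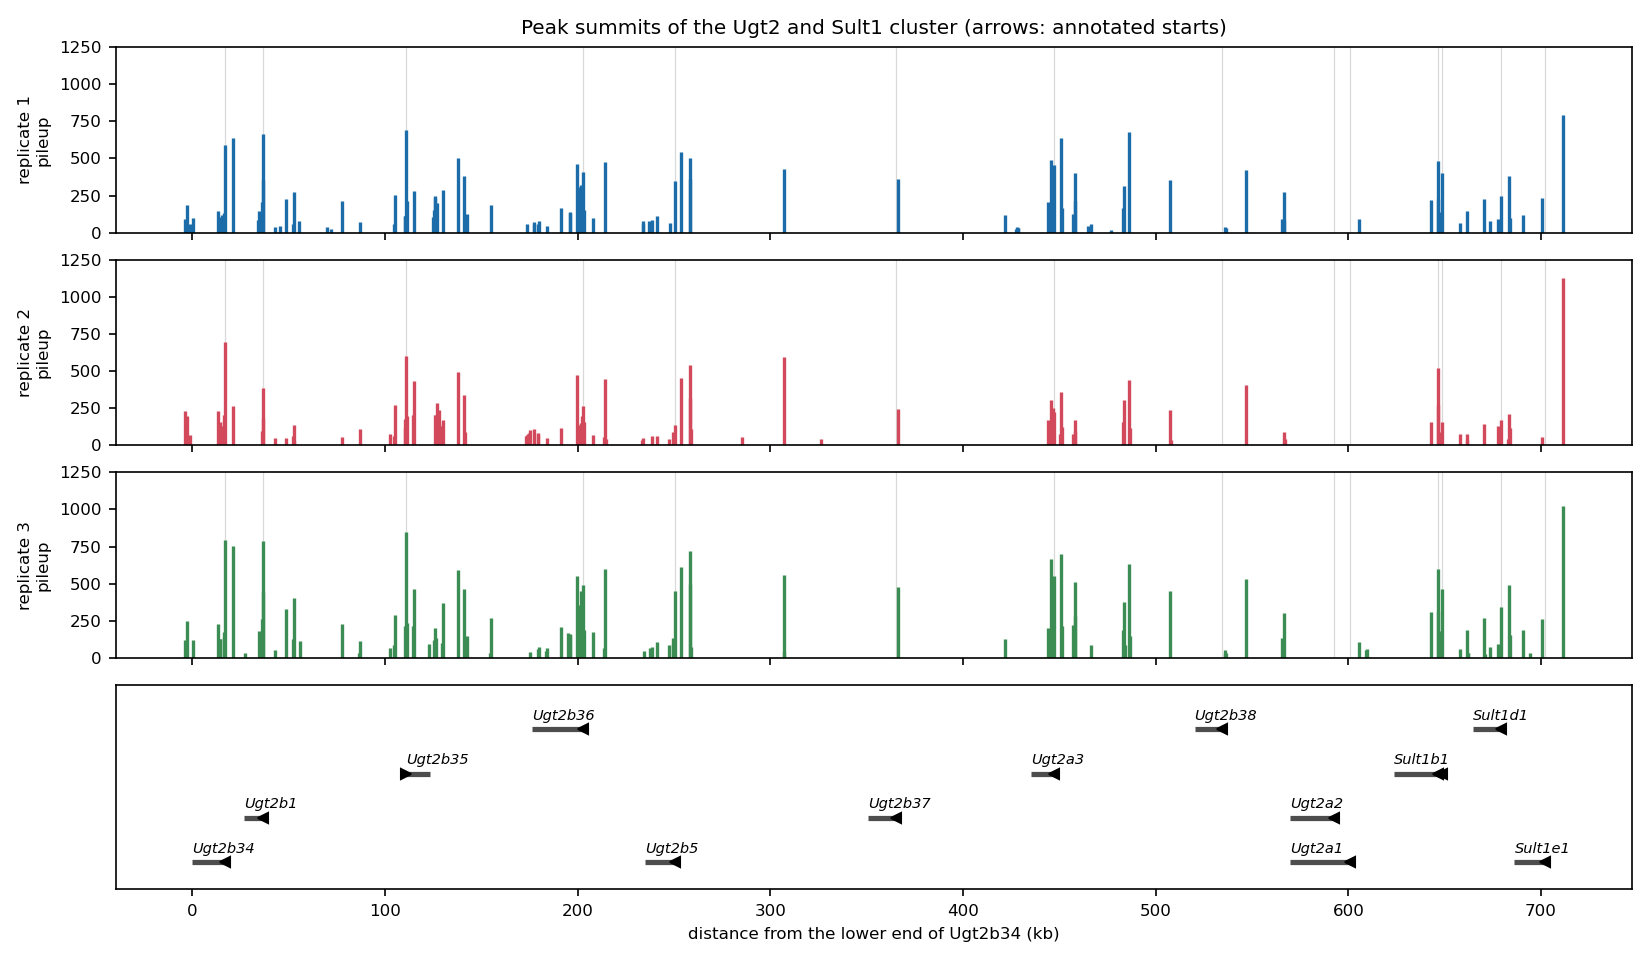
Summit pileup (extended tags, not scaled for depth) along the chromosome 5 cluster of Ugt2 and Sult1 genes in the 3 EV libraries, by distance in kb from the lower end of Ugt2b34; grey lines and arrows mark annotated starts and bars the genes. Starts of Ugt2b34, Ugt2b1 and Ugt2b35 carry tall summits, the span of Ugt2a1 and Ugt2a2 carries none, and the tallest summit (792, 1124 and 1025) lies upstream of Sult1e1.

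Ugt3a1 and Ugt3a2 on chromosome 15, whose human forms use UDP sugars other than glucuronate, had gene-end pileups of 211, 96 and 202 and of 347, 208 and 333. Both were lowest in the library labelled EV replicate 2. Their locus held 8 shared regions in 131.1 kb, 6.10 per 100 kb.

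The alpha class of glutathione transferases, which also reduce lipid peroxides, had gene-end peaks in every library for all 4 genes. Gsta3 (chr1:21240565-21265575), known in mouse for detoxifying aflatoxin epoxide, had 701, 791 and 912 with summits at -82, -66 and -68 bp, downstream of its 3 motif matches. Gsta4, which conjugates 4-hydroxynonenal, had 564, 648 and 636. Gsta2 had 472, 663 and 645, from a peak whose summit lay upstream of the window at its start and whose edge reached that window. At the Gsta2 start itself the pileups were 257, 316 and 200, with summits at -71, -93 and -66 bp. Gsta1 had 396, 582 and 465 with its summit at -823 to -847 bp. Gsta1 and Gsta2 have promoters 77.3% identical. By gene-end peak, replicate 1 was the lowest library in each of the 4 genes, but at the Gsta2 start replicate 3 was the lowest.

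The mu class lies in a cluster of 7 genes on chromosome 3, and all 7 had start peaks in every library. Gstm1 (774, 1151 and 987) and Gstm4 (870, 795 and 916) were the tallest, and Gstm7 (557, 880 and 760), Gstm5 (542, 764 and 733) and Gstm6 (492, 792 and 561 at its gene end) followed. Gstm2 (378, 265 and 375) and Gstm3 (336, 345 and 332) were the lowest, yet above the median peak of each library (133, 125 and 157). Gstm5 had the highest fold enrichment of the class, 24.3, 23.9 and 25, with summits at -13, -11 and -11 bp. Here the library labelled EV replicate 2 was the highest at Gstm1, Gstm5, Gstm6 and Gstm7 and the lowest at Gstm2 and Gstm4. At Gstm3 the pileups were close, but its summit lay at 272 bp, beside -72 and -65 bp in replicates 1 and 3.

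The pi class has 3 genes on chromosome 19. Gstp1 (chr19:4035411-4037912), a major transferase of male mouse liver, had 874, 1041 and 959 at -91, -78 and -98 bp. Gstp3 had a gene-end peak of 863, 824 and 1024, whose tallest summit in replicates 1 and 3 lay upstream of the window at its start. At the Gstp3 start itself the pileups were 695, 824 and 877, with summits at -193, -194 and -182 bp. Gstp2, between Gstp1 and Gstp3, had no peak at its ends or in the gene in any library. However, a shared region centred at -3873 bp (chr19:4045642-4046546) reached 805, 940 and 1041. The cluster was the densest of all, with 13 shared regions in 64.2 kb, 20.3 per 100 kb. Of the theta class, which acts on small halogenated compounds, Gstt2 had 569, 743 and 734, Gstt3 560, 619 and 588 and Gstt1 312, 292 and 412. The gene-end peak of Gstt3 lies within 1 kb of Ddt, and at its own start the pileup was 236, 181 and 307. Gstt4 had no gene-end peak.

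Among the sulfotransferases, Sult1a1 on chromosome 7, the main phenol sulfotransferase, had start pileups of 467, 368 and 749, all within 30 bp of the start. A taller peak at the outer end of the gene (721, 792 and 1014) lies within 1 kb of Slx1b, so it cannot be given to Sult1a1 alone. Sult1c2 had 475, 541 and 634 with a fold enrichment of 17.9, 19.2 and 19.0, and its neighbour Sult1c1 had no peak within 20 kb in any library. Sult1b1, which sulfates thyroid hormones, has 2 annotated starts. The inner start had 483, 517 and 600 and the upstream start, at the gene end, 399, 156 and 462. The library labelled EV replicate 2 was thus low at the upstream start and not at the inner one. Sult1d1, a catecholamine sulfotransferase, had 244, 173 and 342.

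Sult1e1, the oestrogen sulfotransferase, had no peak at its ends, and the accessible chromatin lay around it. A region centred at -9692 bp (chr5:87600973-87601634) had pileups of 792, 1124 and 1025 and fold enrichments of 27.7, 28.1 and 27.2, the second region of all phase II loci by height. Inside the gene, a peak about 1487 to 1497 bp after the start had 234, 56 and 265, lowest in the library labelled EV replicate 2. Its assignment to Sult1e1 is by position alone.

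The Sult2a genes, which sulfate hydroxysteroids and bile acids, form a cluster of 8 on chromosome 7 with few shared regions, 16 in 641.0 kb or 2.5 per 100 kb. Gene-end peaks in every library were found for 3 of the 8. These were Sult2a7 (351, 72 and 391), Sult2a4 (152, 113 and 166) and Sult2a3 (73, 43 and 94), each lowest in the library labelled EV replicate 2. Sult2a5 had 38 and 44 in replicates 1 and 3 and none in replicate 2. Sult2a8, known in mouse liver as a bile acid sulfotransferase, had 194 and 214 at its outer start in replicates 1 and 3. At its inner start, the promoter printed above, it had 647, 337 and 1031 with summits at -164, -175 and -174 bp. Within Sult2a8 there were 10 peaks in replicate 1, 1 in the library labelled EV replicate 2 and 10 in replicate 3, so the call in the gene body of Sult2a8 in that library is the inner start alone.

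Sult2b1, a cholesterol sulfotransferase best known from skin, lies apart on chromosome 7 and went the other way, with 110, 483 and 150 at a start. Sult3a2 had 85, 58 and 99 at the upstream end of the gene, away from its promoter's start, where no peak was called, and Sult3a1, known for sulfating amines, had 51 at a gene end in replicate 1 only and, at its annotated start, 36 and 48 in replicates 1 and 3. Sult5a1 on chromosome 8 had 321, 76 and 371 in the window at its start, lowest in the library labelled EV replicate 2. The summits lay at -830, -453 and -838 bp, so the value of that library comes from another position. At its far end Sult5a1 had 57, 154 and 71, highest in the library labelled EV replicate 2.

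Start peaks were common although the promoters hold few CpG dinucleotides, the sequence feature that marks most promoters accessible in every tissue. Over the 50 genes with a promoter, 37 (74.0%) had a peak within 1000 bp of a start in all 3 libraries, beside 63.9% of all genes with a promoter, and 39 (78.0%, beside 64.2%) had one in replicates 1 and 3. With 50000 peaks per library it was 29 of 50 (58%), close to the 55.1% of all genes with a promoter. The median promoter held 2 CpG and 44.0% GC, while the median over 17274 genes was 15 CpG and 57.3% GC. With 0 to 4 CpG, 25 of 37 phase II genes (67.6%) had a start peak in all libraries, beside 14.1% of all such genes. With 5 to 9 CpG it was 7 of 7, beside 43.5%, and with 10 or more it was 5 of 6, beside 90.4%. Without the library labelled EV replicate 2, 27 of 37 CpG-poor phase II genes had one, beside 14.9%, and without the Ugt1a genes 19 of 29 (65.5%) had one in all libraries. The bins were set after the promoters were read, and no test was made.

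**Figure D4:**
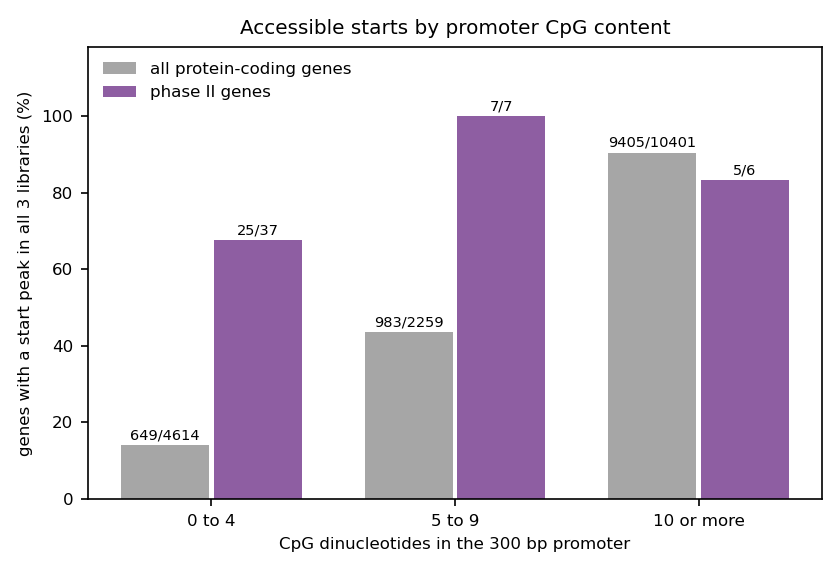
Share of genes with a start peak in all 3 EV libraries (%, bars from 0) by the number of CpG dinucleotides in the 300 bp promoter, for all protein-coding genes with a promoter and for phase II genes; the numbers over the bars are genes with a peak and genes in the bin. In the bin of 0 to 4 CpG the phase II share is 67.6% and that of all genes 14.1%.

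The summits clustered just before the start. Of 59 annotated starts of the 50 genes, 43 had a summit within 1000 bp in every library, at a median of -56 bp. The tallest summit lay upstream in all libraries at 29 starts and downstream in all at 6. Its position varied by 25 bp or less between the libraries at 27 starts, and it stayed within 100 bp of the start in all libraries at 23. Of the 42 genes with a known strand outside Ugt1a, 23 had a shared region at the upstream end of the annotated gene alone. Another 8 had one at both ends, 0 at the downstream end alone and 11 at neither. Summit positions and gene sides were not counted over all protein-coding genes. The upstream end of the gene is not always the start of the promoter used here, as in Sult3a2 and Sult1a1.

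Motif matches were counted over the 300 bp promoters on both strands. GTTAAT was found in 14 of 50 phase II genes (28.0%), beside 7.32% of all genes with a promoter, and in 6.25% of 21045 promoters. The 14 were Gsta3, Sult1a1, Sult1d1, Sult2a3, Sult2a4, Sult2a5, Sult2a6, Sult3a2, Ugt1a1, Ugt1a6a, Ugt1a9, Ugt1a10, Ugt2a3 and Ugt3a1, and 11 of these 14 had a start peak in every library, near the share over all 50 genes (37 of 50). TTGCNNAA was found in 13 genes (26%, beside 11.8% of all genes and 10.3% of promoters), AGGTCA in 11 (22%, beside 16.6% and 14.6%) and TGTTTAC in 5 (10.0%, beside 3.49% and 3.03%). The patterns used here for the Ah receptor and Nrf2 went the other way. GCGTG was found in 11 genes (22%, beside 41.9% and 38.9%) and TGACNNNGC in 3, Gsta3, Gstm5 and Gstm7 (6%, beside 14.9% and 13.0%). Only these exact patterns were counted, not other forms of the sites. CAAAGTCCA was found in Sult1b1 alone (beside 0.527% of genes and 0.456% of promoters). TGACNNNGC and the reverse of AGGTCA can share bases, and like copies share matches by descent, so these are counts of letters in promoters that also differ in base composition, not sites.

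Shared regions were dense across most clusters. The phase II loci, with 20 kb on either side, held 224 shared regions in 2555 kb, 8.77 per 100 kb, beside 4.89 per 100 kb over all protein-coding genes taken the same way, and replicates 1 and 3 alone shared 279. By pileup the shared regions had a median percentile of 68.5, beside 58.6 for all shared regions of the genome. That wider set also holds regions more than 20 kb from any protein-coding gene. Of the 224, 61 lay at gene ends, 72 elsewhere in the genes and 91 in the flanks, and 20 were within 1 kb of a protein-coding gene outside the set. By cluster the density went from 20.3 per 100 kb at Gstp, 19.1 at Sult1a1, 17.4 at Gstt and 16.1 at Ugt1a down to 3.11 at Sult3a, 2.5 at Sult2a and 1.6 at Sult1c, the last 3 below the value for all genes. The other tallest shared regions were those of Gstp1, Gstm1, Gstp3 and Gstm4 given above, that upstream of Gstp2 and 1 inside Sult1a1 (chr7:126680871-126681600; 855, 853 and 1073). Regions near Sphk2 and Rpl18 beside Sult2b1 (746, 887 and 965) and near Slx1b and Bola2 beside Sult1a1 (726, 974 and 886) complete the first 10, and lie within 1 kb of those other genes.

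**Figure D5:**
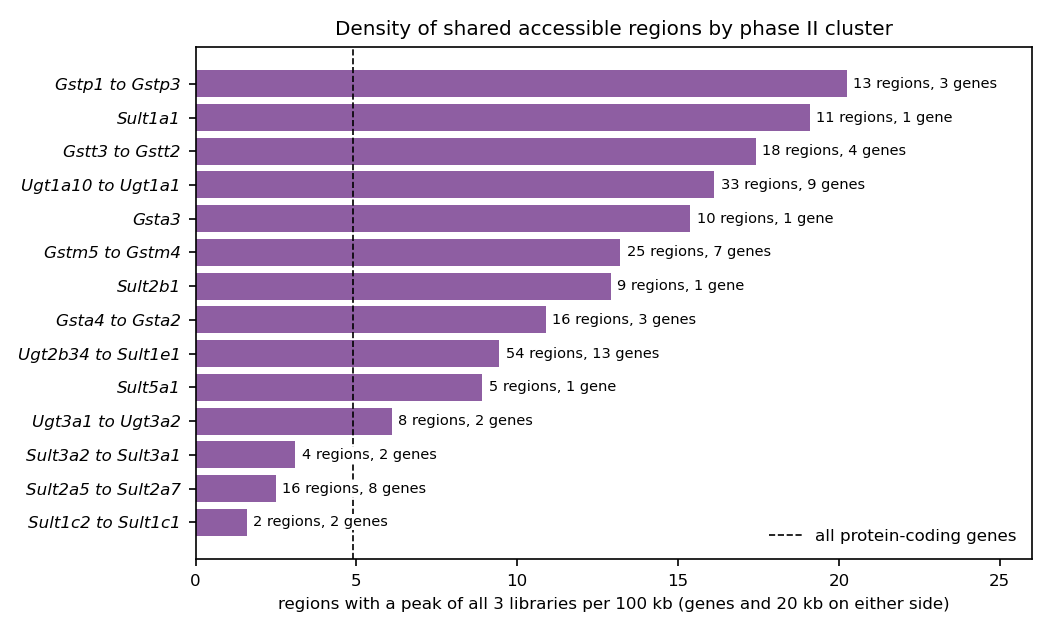
Shared accessible regions per 100 kb (bars from 0, genes with 20 kb on either side) for the 14 phase II clusters, with the number of regions and genes beside each bar; the dashed line is the value over all protein-coding genes, 4.89. The clusters of Sult3a, Sult2a and Sult1c lie below the line and the others above it.

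The libraries differed in how many of these regions they held. Of 365 regions with a peak of any library in the loci, 224 (61.4%) had a peak of all 3, beside 61.5% over the genome. The library labelled EV replicate 2 alone lacked 53 of them, while replicate 1 alone lacked 9 and replicate 3 alone 11. Regions found in 1 library alone numbered 21, 30 and 17 for replicates 1, 2 and 3. These counts by library were not made over the genome. Among the 224, the pileup of the library labelled EV replicate 2 was the lowest at 127 (56.7%), beside 38.9% of 85711 shared regions of the genome, though it had more tags than replicate 1. By family it was lowest at 7 of 7 regions of Ugt2a, 4 of 4 of Sult3 and 7 of 8 of Ugt3a. Next came Gstt (12 of 18), Ugt1a (21 of 33), Ugt2b (21 of 35), Sult1 (15 of 25) and Sult5 (3 of 5). In the remaining families it was lowest at 12 of 25 of Sult2, 6 of 13 of Gstp, 10 of 25 of Gstm and 9 of 26 of Gsta. At the cluster of Sult2b1 it was lowest at 1 of 9. These are comparisons of unscaled pileups, and whether the Sox4 signal of this library bears on them was not tested.

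Genes that act with these enzymes were read by the same gene-end rule, under which 64.4% of all protein-coding genes had a peak in every library. Of 12 genes for cofactor supply, 11 had a gene-end peak in every library, among them Ugdh, which makes UDP-glucuronate, Papss1 and Papss2, which make PAPS, and Gclc and Gclm, which start glutathione synthesis. Slc7a11, the cystine carrier, had none in any. Of 18 further conjugation enzymes, 12 had one, a share (66.7%) near that of all genes, among them Tpmt, Ephx1 and Mgst1, and Nat1, Nnmt, Mgst2, Ugt8a, Sult4a1 and Sult6b1 did not in all libraries. Of 4 exporters of conjugates, Abcc2 and Abcc3 had one in every library and Abcc4 and Abcg2 did not. Of 9 regulators, Ahr, Arnt, Nfe2l2, Keap1, Nr1i2, Nr1i3, Rxra, Ppara and Hnf4a, all 9 had one.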

How the data were processed

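ATAC-seq peak lists of 3 EV libraries were used. The submitters' processing notes list Bowtie2, Picard, deepTools, MACS2 and mm10 but no settings. Peaks were called by the authors per library with MACS 2.2.7.1, without a control, with reads shifted by 100 bp, extended to 200 bp and a q cutoff of 0.05, per the file headers. The pileup (signal), the fold enrichment (ratio to the background) and the −log10 p and −log10 q of each summit were deposited by the authors, unscaled for depth. Fold is relative to a background taken over up to 10000 bp, so it falls beside broad signal. Lists hold no counts outside peaks, so no interval or floor can be given.

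Summits of 1 peak were joined, keeping the highest, and peaks overlapping by 1 bp or more were merged into regions with Python 3.11.15 and pandas 2.3.3. Gene positions and promoters came from RefSeq tables of GRCm38.p6. Promoters of a family were aligned with Biopython 1.88. The counting of gene-end and gene peaks was tested on simulated peaks at long genes set apart from their neighbours. Starts, flanks and overlapping genes were not simulated. The members, gene lists and motifs were chosen with earlier results of these data known. All members are named by family; those given in full were the 2 highest per family, those with partial or no calls and the 10 tallest regions. Further members were given after their values were seen. Some genes of the lists are not reported here. Alternatives are listed in the closing section.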

Additional observations from a re-analysis of the deposited data

How the results depend on the processing

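Over 56 alternatives, 53 values stayed within 1.5 times or within 1 SD of the value reported. The alternatives took another window, flank or overlap, a −log10 q of 10 or the 50000 peaks of highest −log10 q per library. Others used fold in place of pileup, took Ugt1a as 1 locus or left each library out. With 50000 peaks per library the shared regions in the loci fell to 110 and the median percentile moved to 87.0. Those shorter lists hold only the peaks of highest −log10 q. With fold in place of pileup that median, then a rank of another quantity, was 63.2. Of 40 shares compared, 39 were above that of all genes. The exception was the gene-end share with 50000 peaks, where 31 members (54.4%) stood beside 54.4% of all genes. With 50000 peaks the shares for peaks in the gene (64.9%, beside 64%) and starts (58%, beside 55.1%) came close to all genes. Those for flanks (71.9%, beside 60%) and CpG-poor starts (51.4%, beside 8.89%) stayed further above.

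Leaving out each library gave 44 to 46 genes for gene ends, 47 to 48 for peaks in the gene, 50 to 51 for flanks, 37 to 39 for starts, 25 to 27 for CpG-poor starts, 236 to 279 shared regions and a median percentile of 79.6 to 81.2. No paired analysis was possible because the libraries form 1 group. What depth limits cannot be read from peak lists, which hold no values under the threshold. No library was examined for outlying values by a rule, since the group has 3.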
